A study of Mus musculus with 6 samples.

Results

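Matrix metalloproteinases (MMPs), ADAMTS proteases and tissue inhibitors of metalloproteinases (TIMPs) were examined in D2A1 cells, a proliferative mouse mammary tumor cell line used in dormancy research. The genes were chosen by symbol, as every gene named Mmp or Adamts with a number (and, for MMPs, an optional letter) and Timp1 to Timp4. This gave 46 of the 54146 genes in the TPM table, namely 23 MMPs, 19 ADAMTS proteases and 4 TIMPs. D2A1 cells formed spheroids in Matrigel, in DMEM with 10% FBS, and received 50 nM of recombinant SLURP1 (rSLURP1), a secreted Ly6/uPAR-related protein, or 50 nM of recombinant GST (rGST), the control protein. Each treatment had 3 libraries, harvested on day 5. All libraries came from the same cell line, and no source says whether the 3 libraries of a treatment were separate cultures, so a p-value measures the spread between libraries, which may be technical. The comparison asked which of these genes differed with rSLURP1.

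MMPs are zinc endopeptidases that are made as inactive precursors and cleave collagens, other matrix proteins and cell surface proteins. Some are secreted, such as the collagenases and stromelysins, and others are held in the plasma membrane, such as Mmp14. ADAMTS proteases are secreted relatives with thrombospondin repeats, and they cut proteoglycans such as versican, trim procollagens or process fibrillin-rich and other matrix components. TIMPs bind the active site of MMPs and of some ADAMTS proteases, and Timp2 also takes part with Mmp14 in the activation of pro-Mmp2. Matrigel is itself a basement membrane preparation, so the cells grew in contact with a substrate of such proteases.

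Transcript abundance was given as TPM, in which the values of a library share one fixed total. It corrects reads for transcript length, so it can be compared between genes, but it keeps no read depth, and the counting error of each value is unknown. A gene was tested when it reached a TPM of 1 in at least 3 libraries, and 20 of the 46 did so, with 9 MMPs, 8 ADAMTS proteases and 3 TIMPs among them. Another 2, Mmp12 and Adamts12, reached this level in fewer libraries, 15 were above 0 but never reached it, and 9 were listed at 0 in all libraries. Changes were tested with limma on log2(TPM + 1) across all 12301 tested genes, with Benjamini-Hochberg adjustment and a threshold of 0.05. Each log2 fold change is rSLURP1 against rGST, and its standard error is given as SE. On this scale the change of genes with low TPM is understated.

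The libraries of both treatments had between 11906 and 12449 genes at a TPM of 1 or more, and mitochondrially encoded genes held 11.03% to 12.2% of TPM with rGST and 12.5% to 14.3% with rSLURP1. Over all tested genes the log2 fold change had a median of -0.33, and with median-ratio scaling, which sets the typical gene to no change, it was -0.0012. Single fold changes should therefore be read against a general shift of -0.33. Of the 8 mammary epithelial markers checked, Epcam, Krt5 and Krt14 were listed at 0. Cdh1, Krt19 and Krt7 reached at most 0.07, 0.49 and 1.37 TPM and did not pass the filter. Krt18, which passed it, was between 191.05 and 199.39 TPM in all libraries. Krt8, which also passed, was at 1.40 to 1.66 TPM with rGST and 0.51 to 0.81 TPM with rSLURP1. The summed TPM of 8 mesenchymal markers, Vim and Dcn among them, was 2252 to 2479 with rGST and 725.4 to 779.5 with rSLURP1. Of the 8, 6 passed the filter, and they fell by unequal amounts. Mean TPM of Vim was 1259 with rGST and 664.5 with rSLURP1. Dcn went from 580.7 to 5.46 TPM and Lum from 176.7 to 0.907 TPM, while Thy1, under the filter, overlapped between treatments. The macrophage and leukocyte markers Adgre1, Itgam and Ly6g were listed at 0 and Ptprc reached at most 0.01 TPM, while the summed TPM of that list of 8, of which Cd68 and S100a8 passed the filter, was 10.0 to 10.5 with rGST and 16.1 to 24.3 with rSLURP1. Endothelial markers (4 genes) summed to at most 0.31 TPM in any library. The part of the mesenchymal and leukocyte markers in the results was not tested, and in such bulk RNA fewer cells of a type cannot be told apart from less RNA per cell.

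Most of the expressed proteases and inhibitors were lower with rSLURP1, and a small group was higher. Of the 20 tested genes, 12 fell and 3 rose in limma, where 58.5% of all tested genes were lower and 8.66% higher, so the share that fell was close to that of all genes. The same 15 genes had treatments that did not overlap, each with the smallest p-value that an exact permutation test of 3 against 3 libraries allows (two-sided p = 0.1), where 61.7% of all tested genes lay apart toward lower TPM and 9.75% toward higher TPM. Past the 2-fold threshold, 5 genes fell, where 7.06% of all tested genes did, and 1 rose, where 1.15% did. Their median log2 fold change was -0.73, which is -0.40 relative to that of all genes, and 12 of these 20 genes were lower than the general shift. With median-ratio scaling, 11 were lower and 4 higher, where 25.2% and 26.0% of all tested genes were. The genes that fell were Adamts1, Mmp11, Adamts7, Timp4, Mmp14, Adamts10, Mmp28, Adamts14, Timp2, Mmp19, Adamts6 and Mmp9, and those that rose were Mmp13, Mmp10 and Adamts4. Timp4 passed the filter through its rGST libraries alone and so had to differ.

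**Figure D1:**
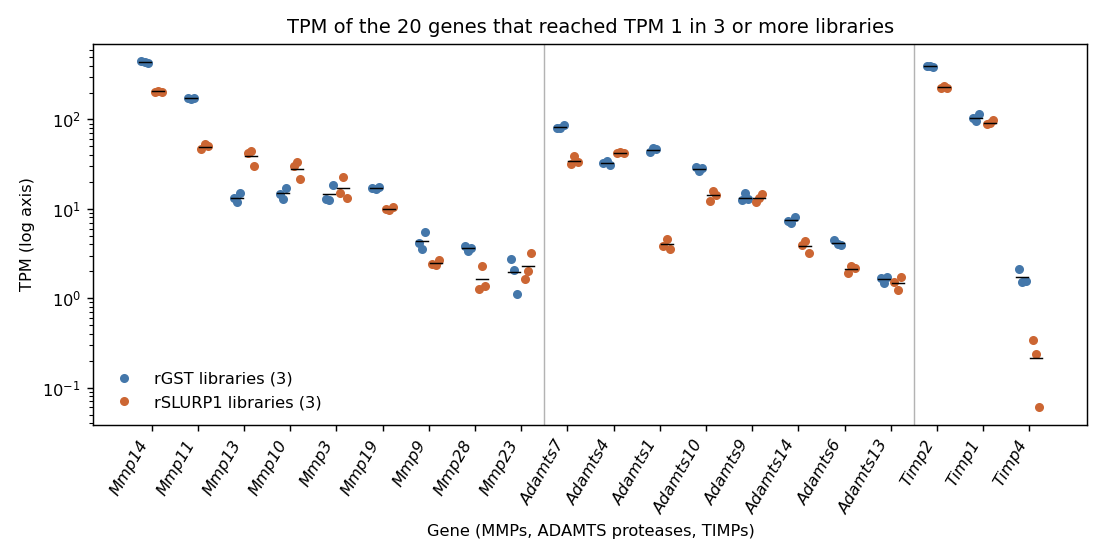
TPM on a log axis of the 20 genes that reached a TPM of 1 in at least 3 libraries, with MMPs, ADAMTS proteases and TIMPs separated by grey lines. Points are the 3 rGST and the 3 rSLURP1 libraries and black lines their means. Mmp13, Mmp10 and Adamts4 have all rSLURP1 points above the rGST points, and 12 genes have them below.

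Promoters are shown for the called genes with the largest changes in each direction, among genes with a single RefSeq window. Each line gives the 120 bases before the RefSeq start (GRCm38.p6), 5′ to 3′ on the strand of the gene, with the letters TGAGTCA or their reverse complement TGACTCA (the AP-1 motif) and TATAAA in capitals. Mmp13 (chr9:7272394-7272513, plus strand) and Mmp10 (chr9:7502222-7502341, plus strand) had the largest increases, Mmp3 (chr9:7445702-7445821, plus strand) is their neighbour and was added for comparison, and Adamts1 (chr16:85803114-85803233, minus strand) and Mmp11 (chr10:75932503-75932622, minus strand) had the largest decreases.
Mmp13: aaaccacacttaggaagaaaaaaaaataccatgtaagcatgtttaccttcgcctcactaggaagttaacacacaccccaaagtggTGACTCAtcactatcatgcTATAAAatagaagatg
Mmp10: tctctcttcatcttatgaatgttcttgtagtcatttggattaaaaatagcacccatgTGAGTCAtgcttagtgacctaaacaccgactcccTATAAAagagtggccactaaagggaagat
Mmp3: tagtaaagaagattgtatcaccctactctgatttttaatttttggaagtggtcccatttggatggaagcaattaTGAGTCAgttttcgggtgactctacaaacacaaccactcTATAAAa
Adamts1: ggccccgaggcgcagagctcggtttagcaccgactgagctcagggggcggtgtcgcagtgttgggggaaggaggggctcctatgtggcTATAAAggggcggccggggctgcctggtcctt
Mmp11: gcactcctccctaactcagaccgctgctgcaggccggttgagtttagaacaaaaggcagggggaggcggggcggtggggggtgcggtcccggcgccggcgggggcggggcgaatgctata

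The AP-1 motif lay 35 bases before the RefSeq start in Mmp13, 63 in Mmp10 and 46 in Mmp3, and the shown windows of Adamts1 and Mmp11 held none. Relative to that start, TATAAA began at -16 in Mmp13, -29 in Mmp10, -7 in Mmp3 and -32 in Adamts1, and the shown Mmp11 window held none. The shown Mmp11 window lies inside the GENCODE span of the gene. Whether these starts are used in D2A1 cells was not tested. AP-1, a dimer of FOS and JUN proteins, is a textbook activator of collagenase and stromelysin genes. RefSeq windows of 300 bases (250 before and 50 after the start) were given for 32 of the 46 genes. Searched on both strands, 7 of the 32 held TGAGTCA, and all 7 (Mmp13, Mmp12, Mmp1b, Mmp3, Mmp1a, Mmp10 and Mmp7) are in the MMP cluster of chromosome 9, which has 10 genes, whereas none of the 22 outside it did. Of all 27025 genes with a window, 5.95% held it. Among tested genes with a window, it was found in Mmp13 and Mmp10, which rose (Adamts4 had no window), in none of the 7 that fell, and in 1 of the 5 that did not pass the test (Mmp3). Mmp13, Mmp10 and Mmp3 are in the cluster and the 7 that fell are not, so motif and cluster cannot be told apart in these genes. TATAAA was in 11 of the 32 genes (34.4%) and in 15.7% of all genes with a window, and the PEA3 motif AGGAAG was in 15 of the 32 (46.9%) and in 38.4% of all. The RUNX motif ACCACA was in 6 of the 32 (18.8%) and in 18.9% of all. Matches of these letters are descriptions of sequence, and their use by a factor was not tested.

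Collagenases open the triple helix of fibrillar collagens. Mmp13 (collagenase 3, ENSMUSG00000050578.10, GRCm38 chromosome 9, 7272514 to 7283331, plus strand) was the only collagenase that passed the filter and had the largest increase of the 20 tested genes. Its TPM was 13.05, 11.88 and 14.87 in the rGST libraries and 41.85, 44.04 and 29.97 in the rSLURP1 libraries. The lowest of the rSLURP1 libraries was well above the highest of the rGST libraries. The means were 13.3 ± 1.51 and 38.6 ± 7.57 TPM (SD, n = 3 each), 2.91-fold higher with rSLURP1. On the log2 scale this was 1.46 (SE 0.149, limma adjusted p = 1.07e-04). Of all tested genes, 99.3% had a lower log2 fold change. The other collagenases, Mmp1a (annotated as a polymorphic pseudogene), Mmp1b and Mmp8, reached at most 0.15 TPM.

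Stromelysins cleave proteoglycans, laminin and fibronectin and activate other MMPs, and their 3 members went different ways. Mmp10 (stromelysin 2, ENSMUSG00000047562.3, chromosome 9, 7502352 to 7510240, plus strand) had a TPM of 14.75, 12.95 and 17.17 with rGST and 30.03, 32.98 and 21.69 with rSLURP1. All 3 rSLURP1 libraries were higher, with a log2 fold change of 0.86 (SE 0.161, limma adjusted p = 0.00225). Mmp3 (stromelysin 1, ENSMUSG00000043613.8, chromosome 9, 7445822 to 7455975, plus strand) had 12.82, 12.50 and 18.46 TPM with rGST and 15.14, 22.50 and 13.12 TPM with rSLURP1. Its treatments overlapped, and the log2 fold change of 0.19 did not pass the test (limma adjusted p = 0.460), although it passed after quantile normalization (0.59, adjusted p = 0.0494).
Mmp11 (stromelysin 3, ENSMUSG00000000901.17, chromosome 10, 75923222 to 75936496, minus strand), which is activated inside the cell by furin and has little activity on the usual stromelysin substrates, fell from 171.81, 168.17 and 175.83 TPM to 46.39, 52.87 and 49.80 TPM. Within each treatment its libraries lay within a narrow range, and the mean with rSLURP1 was 3.46-fold lower (log2 fold change -1.77, SE 0.0545, limma adjusted p = 5.29e-07). The strand setting of the counting is not stated, and on the opposite strand Mmp11 overlaps Chchd10, which averaged 73.2 TPM with rGST and 53.6 with rSLURP1.

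Mmp13, Mmp3 and Mmp10 lie in the cluster of 10 MMP genes on chromosome 9 (GRCm38, 7272514 to 7699585, a span of 427072 bases). In genome order these are Mmp13, Mmp12, Mmp1b, Mmp3, Mmp1a, Mmp10, Mmp8, Mmp27, Mmp20 and Mmp7. Mmp12 (macrophage elastase), the next gene of the cluster after Mmp13, had 0.72, 0.07 and 0.03 TPM with rGST and 1.47, 1.49 and 0.62 TPM with rSLURP1, so that its treatments overlapped. It was not tested because only 2 libraries reached a TPM of 1, and without a filter its log2 fold change was 0.80 (limma adjusted p = 0.0725). The other 6 genes of the cluster reached at most 0.15 TPM. In Mmp13, Mmp12, Mmp3 and Mmp10 alike, rSLURP1 replicate 2 was the highest and replicate 3 the lowest of the rSLURP1 libraries. The ratio of Mmp13 to Mmp10 TPM, which does not depend on the scaling of a library, was 0.866 to 0.917 with rGST and 1.34 to 1.39 with rSLURP1. These ranges did not overlap. The ratio of Mmp13 to Mmp3 was 0.806 to 1.02 with rGST and 1.96 to 2.76 with rSLURP1, so neighbouring genes changed by unequal amounts.

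**Figure D2:**
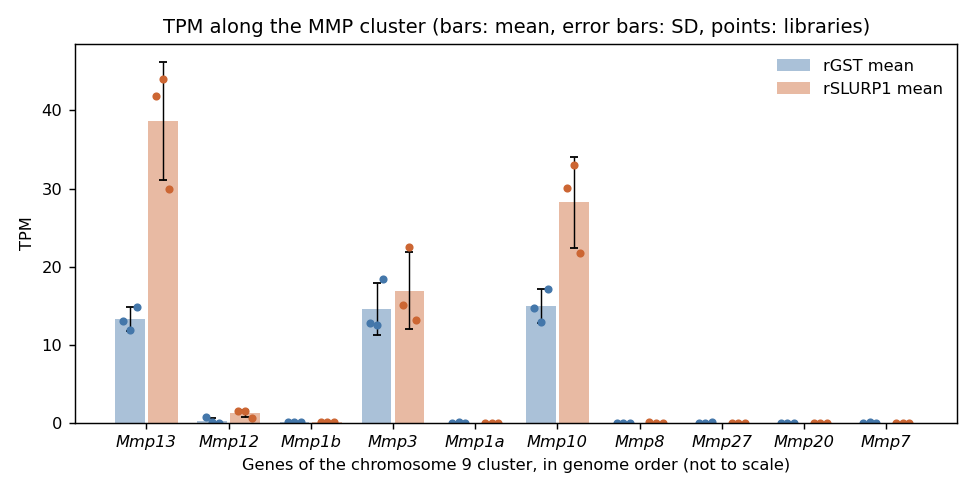
TPM of the 10 genes of the chromosome 9 cluster, in genome order and not to scale. Bars are means, error bars the SD and points the 3 libraries of each treatment. Mmp13 and Mmp10 are apart between treatments, Mmp3 overlaps, and Mmp12 reaches at most 1.49 TPM.

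Membrane-type MMPs act at the cell surface. Mmp14 (MT1-MMP, ENSMUSG00000000957.11, chromosome 14, 54431612 to 54445364, plus strand) was the most abundant of the 46 genes with rGST and below Timp2 with rSLURP1. This collagenolytic enzyme of invading cells also activates pro-Mmp2. It had 446.94, 444.09 and 431.05 TPM with rGST and 202.10, 210.60 and 204.52 TPM with rSLURP1. The spread within a treatment was small beside the difference, with a log2 fold change of -1.10 (SE 0.0348, limma adjusted p = 5.72e-07). The other 5 membrane-type MMPs (Mmp15, Mmp16, Mmp17, Mmp24 and Mmp25) reached at most 0.22 TPM.

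Gelatinases digest denatured collagen and type IV collagen of basement membranes, and both were low. Mmp9 (gelatinase B, ENSMUSG00000017737.2, chromosome 2) had 4.15, 3.55 and 5.46 TPM with rGST and 2.39, 2.35 and 2.66 TPM with rSLURP1. Although its treatments did not overlap (log2 fold change -0.62, SE 0.15, limma adjusted p = 0.00757), the call was lost with median-ratio scaling (-0.35, adjusted p = 0.0875). Mmp2 (gelatinase A, ENSMUSG00000031740.8, chromosome 8), the substrate of Mmp14, had 0.46, 0.62 and 0.58 TPM with rGST and was listed at 0 in all 3 rSLURP1 libraries. No fold is given for it, and it stayed under the filter (without a filter, limma adjusted p = 4.07e-04).

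Among the remaining MMPs, Mmp19, a secreted enzyme of basement membrane components, fell from 17.28, 16.56 and 17.64 TPM to 9.93, 9.61 and 10.38 TPM (log2 fold change -0.73, SE 0.0680, limma adjusted p = 7.17e-05). It overlaps Tmem198b on the opposite strand, at a mean of 14.8 TPM with rGST and 12.9 with rSLURP1. Mmp28 (epilysin) had 3.85, 3.40 and 3.65 TPM with rGST and 1.26, 2.28 and 1.38 TPM with rSLURP1, all of the latter lower, with a log2 fold change of -0.83 (limma adjusted p = 0.00319) that was lost after quantile normalization (adjusted p = 0.0616). Mmp23, a small membrane-anchored MMP, was 2.73, 2.07 and 1.11 TPM with rGST and 1.66, 1.99 and 3.18 TPM with rSLURP1. Its libraries varied widely within each treatment and overlapped, with a log2 fold change of 0.15 (limma adjusted p = 0.614). Mmp7 and Mmp27 reached at most 0.09 TPM, and Mmp20 and Mmp21 were listed at 0.

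The ADAMTS proteases that cut versican and aggrecan did not move together. Adamts1 (ENSMUSG00000022893.14, chromosome 16, 85793827 to 85803113, minus strand), which cleaves versican and binds VEGF, had 42.88, 48.29 and 46.10 TPM with rGST and 3.84, 4.63 and 3.52 TPM with rSLURP1. This was the largest decrease of the tested genes, 11.4-fold between the means of 45.8 ± 2.72 and 4.0 ± 0.571 TPM (SD, n = 3 each). Its log2 fold change was -3.23 (SE 0.0979, limma adjusted p = 4.86e-07). Of all tested genes, 0.268% had a lower log2 fold change.
Adamts4 (aggrecanase 1, ENSMUSG00000006403.13, chromosome 1, 171250421 to 171260637, plus strand) rose instead, from 32.51, 34.66 and 30.71 TPM to 41.60, 43.49 and 41.76 TPM. All rSLURP1 libraries were higher, by a log2 fold change of 0.37 (SE 0.0586, limma adjusted p = 0.00103). The ratio of Adamts4 to Adamts1 TPM was 0.666 to 0.758 with rGST and 9.39 to 11.9 with rSLURP1. Adamts9 had 12.45, 14.88 and 12.74 TPM with rGST and 11.95, 13.12 and 14.57 TPM with rSLURP1. Its treatments overlapped, with a log2 fold change of -0.01 (limma adjusted p = 0.905), but with median-ratio scaling it was at 0.315 and passed the test (adjusted p = 0.0322). Adamts5 (aggrecanase 2), next to Adamts1 on chromosome 16, reached at most 0.07 TPM. Adamts15 reached 0.01 TPM, and Adamts8 and Adamts20 were listed at 0.

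Adamts7 (ENSMUSG00000032363.15, chromosome 9, 90163069 to 90208071, plus strand), which cleaves cartilage oligomeric matrix protein, was the most abundant ADAMTS gene with rGST. It fell from 79.73, 80.91 and 86.21 TPM to 31.72, 39.27 and 33.13 TPM, with no overlap (log2 fold change -1.23, SE 0.0819, limma adjusted p = 1.49e-05). Adamts7 overlaps Tbc1d2b on the opposite strand, which averaged 11.2 TPM with rGST and 7.16 with rSLURP1. Its closest relative Adamts12 was at 0.78, 1.0 and 0.76 TPM with rGST and at 0.55, 0.37 and 0.36 TPM with rSLURP1, under the filter, and was lower when no filter was used (limma adjusted p = 0.0273). Of the procollagen N-propeptidases, which trim the amino end of fibrillar procollagens, only Adamts14 was expressed, and Adamts2 and Adamts3 were listed at 0. Adamts14 had 7.38, 7.0 and 8.10 TPM with rGST and 3.92, 4.32 and 3.21 TPM with rSLURP1. All rSLURP1 libraries were lower (log2 fold change -0.82, SE 0.119, limma adjusted p = 6.07e-04).

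Adamts10, which binds fibrillin-1, and its close relative Adamts6 both fell. Adamts10 was at 29.35, 26.47 and 28.42 TPM with rGST and at 12.21, 15.81 and 14.32 TPM with rSLURP1 (log2 fold change -0.95, SE 0.0966, limma adjusted p = 1.05e-04). Adamts6 was at 4.53, 4.05 and 3.94 TPM with rGST and at 1.91, 2.30 and 2.18 TPM with rSLURP1 (log2 fold change -0.73, SE 0.116, limma adjusted p = 0.00102). In both genes every rSLURP1 library was below the rGST libraries, but Adamts6 lost its call once length and GC content of transcripts were corrected for (adjusted p = 0.0628). Adamts13, which cleaves von Willebrand factor, had 1.69, 1.49 and 1.73 TPM with rGST and 1.5, 1.25 and 1.72 TPM with rSLURP1, which overlapped (log2 fold change -0.09, limma adjusted p = 0.609). Adamts17 stayed under the filter, with 0.41 to 0.58 TPM under rGST and 0.01 to 0.09 TPM under rSLURP1 (without a filter, limma adjusted p = 0.00194), and Adamts16, Adamts18 and Adamts19 were listed at 0.

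Of the inhibitors, Timp2 and Timp1 made up nearly all TIMP transcripts. Timp2 (ENSMUSG00000017466.9, chromosome 11, 118301069 to 118355740, minus strand) had 397.29, 395.29 and 386.51 TPM with rGST and 223.84, 237.18 and 227.48 TPM with rSLURP1. All rSLURP1 libraries were lower, and the log2 fold change was -0.77 (SE 0.0363, limma adjusted p = 3.32e-06). Timp1 (ENSMUSG00000001131.11, chromosome X, 20870166 to 20874735, plus strand), a secreted inhibitor of most soluble MMPs, had 103.33, 96.15 and 114.05 TPM with rGST and 88.14, 90.64 and 97.66 TPM with rSLURP1. These values overlapped, with a log2 fold change of -0.18 that did not pass the test (SE 0.0703, limma adjusted p = 0.0550) and that turned to 0.17 with median-ratio scaling (adjusted p = 0.0796).
The Timp1 call depended on single libraries, since it passed without rGST replicate 2 (-0.24, adjusted p = 0.0225) and without rSLURP1 replicate 3 (-0.22, adjusted p = 0.0421). Timp4 had 2.11, 1.52 and 1.56 TPM with rGST and 0.34, 0.24 and 0.06 TPM with rSLURP1, with a log2 fold change of -1.17 (SE 0.176, limma adjusted p = 7.57e-04). Timp3, the matrix-bound inhibitor of ADAMTS proteases and ADAM17, reached at most 0.06 TPM. Timp1, Timp3 and Timp4 each overlap a synapsin gene on the opposite strand. Syn1 averaged 1.14 TPM with rGST and 2.67 with rSLURP1, Syn2 2.59 and 0.910 TPM, and Syn3 was listed at 0.

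**Figure D3:**
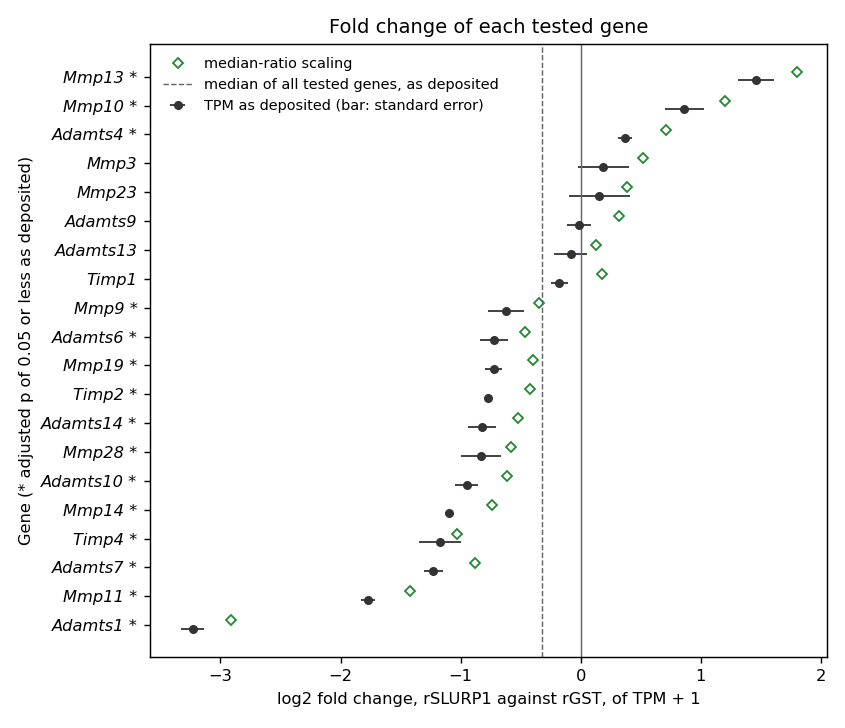
Log2 fold change of TPM + 1, rSLURP1 against rGST, of the 20 tested genes, with the standard error (filled circles) and with median-ratio scaling (open diamonds). The dashed line marks the median of all tested genes, -0.33. Mmp13, Mmp10 and Adamts4 lie above 0 and Adamts1 and Mmp11 farthest below it under both scalings, while Timp1, Adamts9 and Adamts13 lie on either side of 0 depending on the scaling.

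The summed TPM of the MMPs was 676.2 to 688.7 with rGST and 337.6 to 381.0 with rSLURP1, that of the ADAMTS proteases was 211.8 to 219.3 and 109.2 to 124.7, and that of the TIMPs was 493.0 to 502.8 and 312.3 to 328.1. All 3 sums were lower with rSLURP1 without overlap. Shares within a family, which do not depend on how a library is scaled, describe its balance. Mmp14 held 62.8% to 65.7% of MMP transcripts with rGST and 55.3% to 60.6% with rSLURP1, and Mmp11 held 24.9% to 25.6% and 13.2% to 14.8%. Mmp3, Mmp10 and Mmp13 together held 5.52% to 7.36% with rGST and 19.2% to 26.1% with rSLURP1.
Among ADAMTS transcripts, Adamts7 was first with rGST, at 36.9% to 39.3%, and Adamts4 was first with rSLURP1, at 34.9% to 38.1% against 14% to 15.8% with rGST. Adamts1 held 20.2% to 22.0% with rGST and 3.06% to 3.71% with rSLURP1. Timp1 held 19.5% to 22.7% of TIMP transcripts with rGST and 27.6% to 30.0% with rSLURP1, although its own TPM overlapped between treatments. None of these shares overlapped between treatments.
The ratio of summed TIMP to summed MMP TPM was 0.729 to 0.732 with rGST and 0.861 to 0.963 with rSLURP1. The ratio of Timp2 to Mmp14, the pair that forms the receptor of pro-Mmp2 on the cell surface, was 0.889 to 0.897 with rGST and 1.11 to 1.13 with rSLURP1. Both ratios were higher in all rSLURP1 libraries, and they compare transcripts, not proteins.

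**Figure D4:**
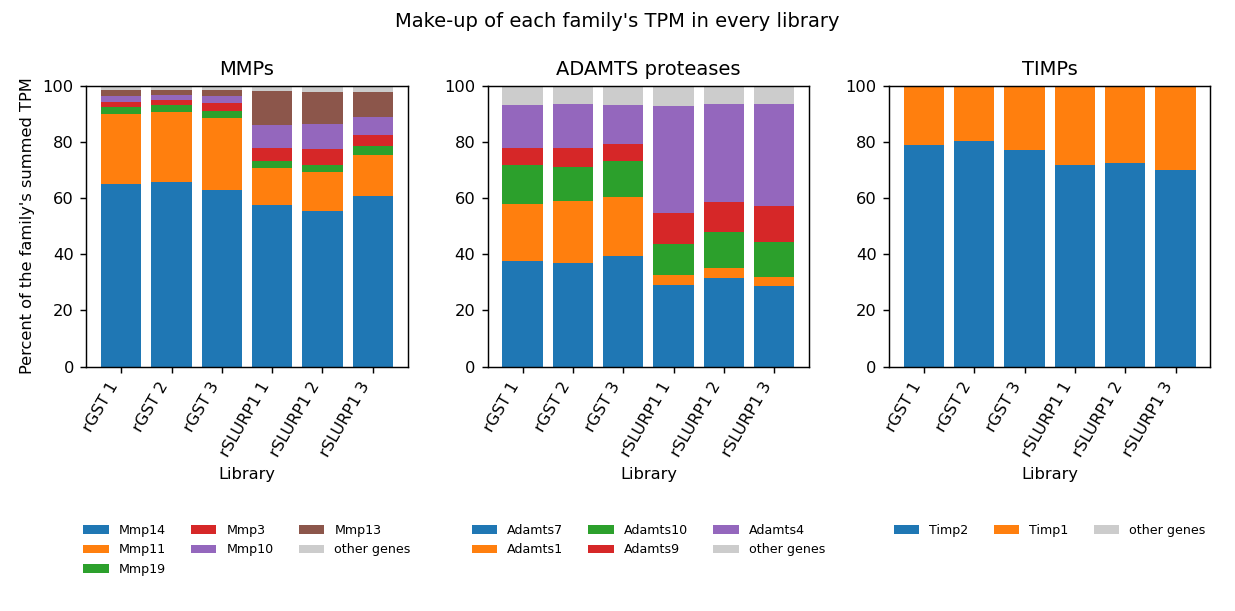
Share of each gene in the summed TPM of its family, in percent, for each of the 6 libraries. With rSLURP1 the shares of Mmp3, Mmp10 and Mmp13 among MMPs and of Adamts4 among ADAMTS proteases are larger, those of Mmp11 and Adamts1 are smaller, and Timp1 holds 27.6% to 30.0% of TIMP transcripts.

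Other genes of protease activation, inhibition and matrix processing were taken from lists of 46 related genes, of which 30 were tested. In limma 7 rose and 17 fell, where 8.66% of all tested genes rose and 58.5% fell, and 1 rose and 6 fell at least 2-fold, where 1.15% and 7.06% of all tested genes did. With median-ratio scaling the balance turned, with 12 higher and 9 lower, where 26.0% and 25.2% of all tested genes were. Plau and Adamtsl2 passed the filter through their rGST libraries alone. Of 7 activating proteases, 4 were tested and all 4 fell, as did 58.5% of all tested genes, and 2 of the 4 were lower with median-ratio scaling. Furin, which activates Mmp11 and Mmp14, went from 70.4 ± 2.08 to 46.6 ± 1.24 TPM (SD, n = 3 each), by a log2 fold change of -0.59 (limma adjusted p = 3.16e-05), and Plat (tPA) fell 7.61-fold between means of 42.5 and 5.58 TPM (log2 fold change -2.75, limma adjusted p = 5.47e-06). Plau (uPA) and Pcsk7 lost their calls with median-ratio scaling (adjusted p = 0.141 and 0.675). Plg, the plasmin precursor, reached at most 0.03 TPM. Reck, a membrane-anchored inhibitor of Mmp14 and Mmp9, had a log2 fold change of -0.85 (limma adjusted p = 1.50e-04), and A2m reached at most 0.03 TPM.
Lrp1, the endocytic receptor that clears MMPs, ADAMTS proteases and TIMPs, fell from a mean of 320.3 TPM to 147.1 TPM (log2 fold change -1.12, limma adjusted p = 8.22e-07). Bsg (CD147), an inducer of MMPs, had a log2 fold change of -0.79 (limma adjusted p = 3.52e-06). Pcolce, an enhancer of procollagen C-propeptide cleavage, fell from 894.9 to 338.8 TPM (log2 fold change -1.40, limma adjusted p = 8.22e-07). Its partner protease Bmp1 had a log2 fold change of -0.18 (limma adjusted p = 0.0128) that turned to 0.17 with median-ratio scaling.

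ADAM sheddases release membrane-bound growth factors and cytokines. Of 8 ADAM genes, 5 were tested, of which 2 rose and 2 fell (8.66% and 58.5% of all tested genes). With median-ratio scaling 3 were higher and none was lower, where 26.0% and 25.2% of all tested genes were. Adam17 went from 45.5 to 61.2 TPM (log2 fold change 0.42, limma adjusted p = 3.33e-04) and Adam9 from 48.0 to 63.0 TPM (log2 fold change 0.38, limma adjusted p = 1.92e-04). Adam15, the most abundant of them, and Adam10 had log2 fold changes of -0.32 and -0.14 as deposited and of 0.035 and 0.21 with median-ratio scaling. Of the ADAMTS-like genes, which lack the protease domain, 4 of 6 were tested, and 2 fell, where 58.5% of all tested genes did. Adamtsl2 was at 6.35, 4.54 and 4.52 TPM with rGST and at most 0.03 TPM with rSLURP1 (log2 fold change -2.59, limma adjusted p = 1.11e-05), and Adamtsl4 fell from a mean of 10.4 to 1.77 TPM (log2 fold change -2.04, limma adjusted p = 4.11e-05). Adamtsl5, the most abundant of them, averaged 13.2 ± 1.93 and 11.7 ± 1.86 TPM (SD, n = 3 each) and Adamtsl3 averaged 3.05 and 3.21 TPM. Both overlapped between treatments, with log2 fold changes of -0.17 and 0.045 that did not pass the test (limma adjusted p = 0.294 and 0.821). Papln, under the filter, was at 0.29 to 0.38 TPM with rGST and 0.57 to 0.76 TPM with rSLURP1. The ADAMTS substrates Vcan, Acan, Bcan, Ncan and Comp did not pass the filter, and Vcan, the highest of them, reached 1.61 TPM.

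Of the factors that act on MMP promoters, all 11 were tested, of which 5 rose and 4 fell (8.66% and 58.5% of all tested genes). With median-ratio scaling 8 were higher and 1 was lower, where 26.0% and 25.2% of all tested genes were. Fos had 4.45, 5.83 and 3.88 TPM with rGST and 15.14, 17.35 and 15.94 TPM with rSLURP1, with a log2 fold change of 1.60 (SE 0.133, limma adjusted p = 4.06e-05). All 3 rSLURP1 libraries were higher. Fosl1, Jund, Etv4 and Ets2 also rose, with log2 fold changes of 0.71, 0.54, 0.60 and 0.42. Junb, the most abundant of the list, and Jun had -0.14 and -0.36, and Junb turned to 0.21 with median-ratio scaling. Runx2, an activator of Mmp13 in bone and cartilage, had a log2 fold change of -0.42 (limma adjusted p = 0.00313), and the calls of Runx2 and Jun were lost with median-ratio scaling (adjusted p = 0.409 and 0.920). Ets1 had -1.14 (limma adjusted p = 2.54e-05). Whether any of these factors bears on the MMP genes was not tested.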

How the data were processed

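RNAseq of D2A1 spheroids was analysed for 3 rSLURP1 and 3 rGST libraries, grouped and numbered by the sample labels. The authors deposited TPM per gene and library, without pooling. Per the submitters' processing notes reads were trimmed with cutadapt 1.18, aligned to mm10 with STAR 2.5.2b and quantified with RSEM 1.3.3. The notes and the methods of the study differ in some versions, and also in the library kit (TruSeq mRNA against Smart-seq2). Strandedness is not given in the sources used here. Read depth is unknown, because TPM keeps none, so no counting error could be given.

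Log2(TPM + 1) was fitted for the 12301 genes that reached 1 TPM in 3 or more libraries, with limma (version 3.58.1, R 4.3.3; lmFit, eBayes with trend), without a block, with Benjamini-Hochberg adjustment over all of them and thresholds of 0.05 and a 2-fold change. The genes named were all 20 tested members, the others with their ranges, and of the related genes those changed at least 2-fold and the most abundant of each list. Further related genes were named after their values were seen. The members, lists and tests were chosen with earlier results of these data known. The alternatives changed the scaling (median-ratio, quantile, or no mitochondrial genes), the filter (none, or all 6 libraries), the pseudocount (0.1), the variance trend (none) and the samples (each library left out), or took the replicate number as a block. Adjusting for the length and GC content of transcripts by loess was added after the data were seen. All 46 genes were matched to GENCODE M21 (GRCm38) for coordinates. Promoters are from RefSeq (GRCm38.p6).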

Additional observations from a re-analysis of the deposited data

How the results depend on the processing

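All 3 genes that rose and 9 of the 12 that fell kept their direction and their call in every alternative in which they were tested (Timp4 could not be tested with the filter in all 6 libraries). The exceptions were Mmp9 with median-ratio scaling, Mmp9 and Mmp28 after quantile normalization, and Mmp9, Mmp28 and Adamts6 after the correction for length and GC. Over 15 alternatives, 274 of 299 values of single genes kept direction and call, 6 became weaker, 5 stronger and 14 reversed. The number of genes higher was 5 with quantile normalization in place of 3. The median log2 fold change of the genes went from -0.73 to -0.056 without a filter, which adds 17 genes under the filter (3 of them lower, for 15 lower in all), and to -0.41 (median-ratio), -0.34 (quantile) and -0.31 (length and GC), which move the median of all genes to between -0.0012 and 0.032. Under these last 3 settings Adamts13 reversed to 0.13, 0.25 and 0.36 and Adamts9 to 0.315, 0.38 and 0.45. Timp1 reversed to 0.17 and 0.086 with the first 2. Without mitochondrial genes Adamts9 was at 0.010.

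Leaving out each library gave ranges from -0.082 to 0.060 for Adamts9, from -0.074 to 0.34 for Mmp23 and from -0.026 to 0.36 for Mmp3. In these fits 3 genes were higher and 12 to 13 lower. In a fit blocked on the replicate number, 3 genes were higher and 13 lower, Timp1 being added (adjusted p = 0.0253 in limma). Timp1 also passed with the filter in all 6 libraries (adjusted p = 0.0452 in limma). The deviations of same-numbered libraries correlated at -0.061 to -0.034 and those of other pairs at 0.007 to 0.048 across genes. Same-numbered libraries thus showed no shared deviation, which does not tell whether they were set up together. Read depth is unknown, and its effect on genes near a TPM of 1 could not be assessed.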
